A study of Arabidopsis thaliana with 12 samples.

Results

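The VARIANT IN METHYLATION (VIM) family genes of Arabidopsis thaliana were examined in the mRNA-seq experiment of a study on the chromatin remodeler PICKLE (PKL). The family was represented by 5 genes, VIM1 to VIM5, of 33602 annotated genes in the expression table, and 4 of the 5 had reads in at least 1 library. The genes were chosen by their measured values, because several of them were higher in pkl than in the other genotypes, so their differences between genotypes are described below, with no p-value. RNA came from 2-week-old whole seedlings grown on 1/2 MS plates at 22 °C under 12 h of light and 12 h of darkness. The genotypes were pkl (allele pkl-1, a PKL mutant in the Col background), nrpd1 (allele nrpd1-3, mutated in a subunit gene of RNA polymerase IV), nrpe1 (allele nrpe1-11, mutated in a subunit gene of RNA polymerase V) and wild type (WT), with 3 libraries each. Each mutant was represented by a single allele. Polymerases IV and V work in RNA-directed DNA methylation (RdDM), in which small RNAs guide methylation of cytosines, and the comparison of pkl with nrpd1 and nrpe1 asked which transcript changes of pkl also occur when this pathway is lost.

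VIM proteins, also called ORTHRUS proteins, bind methylated cytosine through an SRA domain and carry a PHD finger and RING domains. They are the plant relatives of mammalian UHRF1, and work with the DNA methyltransferase MET1 to copy CG methylation onto the new strand after replication. VIM1, VIM2 and VIM3 are known to act redundantly in this role, and the family is expressed mainly where cells divide. In the TAIR10.1 annotation, VIM1 (AT1G57820, chr1:21413981-21418115) and VIM5 (AT1G57800, chr1:21408623-21412283) lay on the minus strand of chromosome 1, with the pseudogene AT1G57810 between them. VIM4 (AT1G66040, chr1:24583740-24586760, minus strand) and VIM2 (AT1G66050, chr1:24589343-24592780, plus strand) formed a second cluster, pointing away from each other on both sides of AT1G66045. VIM3 (AT5G39550, chr5:15837178-15840678, minus strand) stood alone. The proteins had 645 (VIM1), 623 (VIM2), 617 (VIM3), 622 (VIM4) and 664 (VIM5) residues, and the related ORTHRUS-like gene AT4G08590, called VIM6 here, coded for 465.

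The copies are shown first, because reads from near-identical stretches cannot be assigned to 1 gene. The coding sequences of VIM2 and VIM4 were 99.5% identical over 1869 aligned bases, and their proteins matched at 618 of 622 positions. VIM3 was 95.9% identical to either of them in coding sequence and 94.0% in protein. VIM1 and VIM5 were 83.4% identical in coding sequence, and VIM1 and VIM2 77.0%. Bases 40 to 159 of the coding sequence, counted from the start codon, are printed for the trio of close copies because no gap-free window of 120 bases holds more than its 3 differences between VIM2 and VIM4, and it is the first of those that do, read in the direction of transcription from the RefSeq genome. Capitals mark the 11 positions at which at least 1 of the copies differs.
VIM2: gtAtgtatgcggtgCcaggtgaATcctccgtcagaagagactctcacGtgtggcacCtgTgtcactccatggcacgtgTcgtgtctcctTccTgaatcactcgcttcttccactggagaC
VIM4: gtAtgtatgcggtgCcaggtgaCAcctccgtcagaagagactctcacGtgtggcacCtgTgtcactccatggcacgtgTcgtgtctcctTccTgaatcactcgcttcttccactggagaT
VIM3: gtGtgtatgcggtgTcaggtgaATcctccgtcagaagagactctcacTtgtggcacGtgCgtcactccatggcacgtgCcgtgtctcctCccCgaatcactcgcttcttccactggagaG
Within this stretch VIM4 differed from VIM2 at 3 positions and VIM3 at 9. Over the whole coding sequence, VIM2 and VIM4 differed by 9 substitutions, given as the VIM2 base, its position in the VIM2 coding sequence and the VIM4 base: A62C, T63A, C159T, T189C, A253G, T420C, G1710A, A1839C and G1853A. VIM2 also had 3 bases with no counterpart in VIM4. Between bases 420 and 1710 lay an unbroken identical run of 1289 bases. Of all windows of 100 bases in the spliced coding sequence, 70.9% of those of VIM2 were present without a mismatch in VIM4, and 71.0% of those of VIM4 in VIM2. The share of windows that either shared with VIM3 was close to 2% (1.97% of those of VIM2 and 2.09% of those of VIM4). By another measure, exon windows of 100 bases searched against the whole genome, 49.9% of those of VIM2, 58.3% of those of VIM4 and 1.07% of those of VIM3 recurred. In VIM1 and VIM5, 0 of these exon windows did. A large share of such stretches of VIM2 or VIM4 thus fitted both genes, and those of VIM1 fitted a single place. How reads with several positions were treated is not given in the sources used here.

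**Figure D1:**
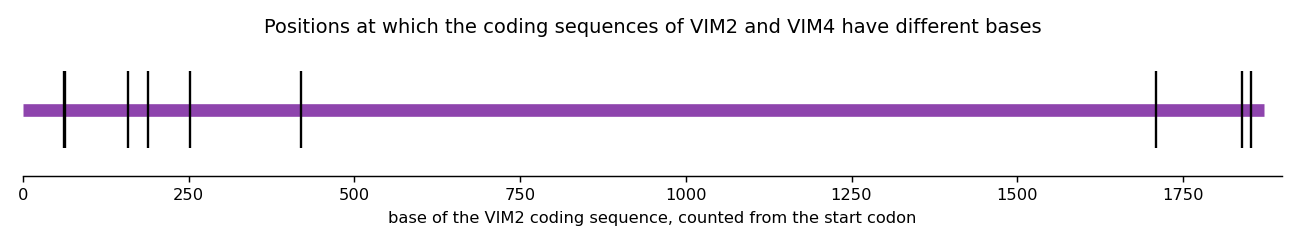
Positions (black lines) at which the coding sequences of VIM2 and VIM4 carry different bases, along the VIM2 coding sequence in bases from the start codon (x axis; the vertical direction has no scale). The 9 positions lie at both ends, with the 1289 identical bases between positions 420 and 1710.

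The upstream regions were compared as well, since VIM3 and VIM4 lie on different chromosomes. VIM3 and VIM4 shared a block next to the annotated start of VIM3 (chr5:15840679-15840817, minus strand). In VIM4 this block lay at chr1:24586840-24587009 (minus strand) and ended 80 bases before the annotated start. Of 139 aligned bases, 132 were identical. It is printed in the direction of transcription, with capitals at bases that differ or have no partner.
VIM3 upstream: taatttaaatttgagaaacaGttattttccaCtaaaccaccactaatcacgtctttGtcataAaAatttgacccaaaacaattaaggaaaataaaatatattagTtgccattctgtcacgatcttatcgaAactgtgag
VIM4 upstream: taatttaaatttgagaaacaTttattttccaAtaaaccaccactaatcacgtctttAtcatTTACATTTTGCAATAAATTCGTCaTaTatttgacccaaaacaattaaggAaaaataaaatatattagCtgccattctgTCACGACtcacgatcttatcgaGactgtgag
VIM2 carried a shorter and less exact version. It was found by searching only the last 90 bases before each annotated start. Of 65 aligned bases between chr1:24589267-24589335 (plus strand) and chr5:15840695-15840760 (minus strand), 57 were identical, capitals marking the others as before.
VIM3 proximal: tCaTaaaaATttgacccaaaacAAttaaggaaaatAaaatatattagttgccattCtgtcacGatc
VIM2 proximal: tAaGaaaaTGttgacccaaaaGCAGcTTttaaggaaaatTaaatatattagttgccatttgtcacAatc
Over the 250 bases upstream of the start, as searched for VIM4, the best local alignment of VIM3 with VIM2 had 148 of 213 bases identical (69.5%). With VIM1 it had 134 of 221 (60.6%). The 250-base windows of VIM1 to VIM5 and VIM6 were also searched on both strands for the E2F-type motifs TTTCCCGC, TTTCGCGC, TTTGCCGC and TTTGGCGC, since many replication genes of plants carry such motifs. None of them held a match, and 721 of the 37897 upstream windows of all annotated genes held any of the 4 motifs. A match or its lack describes these letters only.

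Expression was deposited as RPKM, the reads of a gene divided by its length and by the library total, and whole read numbers were worked back from it. The shallowest library was nrpe1 replicate 2 with 7204299 reads, and the other 11 held 15242073 to 21475250. A shallow library raises the value of 1 read, so nrpe1 replicate 2 limits every nrpe1 value of the weak genes VIM2 and VIM4. Shoot (RBCS1A, CAB1) and root genes (PYK10, CASP1, SCR, COBL9) were detected in every genotype. Values per gene compare a whole seedling, in which fewer cells of a type and less RNA per cell cannot be told apart.

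The family was headed by VIM1 in every genotype. The order by RPKM, a level per length, was VIM1, VIM3, VIM2 and VIM4 in 12 of 12 libraries, and the same order held for the read numbers. The levels of VIM2 and VIM4, and so their places, depend on how reads fitting both genes were treated, which is not given. VIM1 ranged over all libraries between 9.18 and 14.1 RPKM (median 11.8), and VIM3 between 3.68 and 8.59 (median 4.68), without overlap. VIM2 ranged between 0.203 and 1.83 RPKM (median 0.803), below every VIM3 value. VIM4 reached at most 0.448 RPKM (median 0.0897), so the ranges of VIM2 and VIM4 overlapped across libraries. VIM5 had 0 reads in all 12 libraries. A count of 0 allows up to 3 reads, which over the pooled libraries of a genotype and the VIM5 coding length of 1995 bases is 0.0270 RPKM in pkl, 0.0249 in nrpd1, 0.0358 in nrpe1 and 0.0286 in WT. These limits cover counting error only. VIM6 lay between VIM3 and VIM2, and its lowest value (1.85 RPKM) was close to the highest of VIM2.

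VIM1, the best characterised member, was moderately higher in all mutants alike. Its levels were 13.5, 12.5 and 11.2 RPKM in pkl, 14.1, 10.8 and 12.3 in nrpd1, 13.4, 14.1 and 10.5 in nrpe1, and 9.18, 9.20 and 11.0 in WT (replicates 1, 2 and 3). All 3 pkl libraries lay above the WT libraries, the lowest by a narrow margin, while the nrpd1 and nrpe1 libraries overlapped with WT. Median-ratio scaling of the libraries puts pkl replicate 3 (factor 1.07) below WT replicate 3 (factor 1.04). The means were 12.4 ± 1.16 RPKM in pkl and 9.80 ± 1.06 in WT (SD, n = 3 each), a ratio of 1.26. On the log2(RPKM + 0.1) scale the differences from WT were 0.34 in pkl, 0.33 in nrpd1 and 0.36 in nrpe1 (SE 0.15 each). After median-ratio scaling they were 0.26 in pkl, 0.29 in nrpd1 and 0.35 in nrpe1. Set against the average of the RdDM mutants, VIM1 in pkl differed by -0.01 (SE 0.13).

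VIM3 was higher in pkl than in all other libraries by RPKM as deposited. It had 8.59, 7.05 and 6.36 RPKM in pkl, 5.67, 3.68 and 3.98 in nrpd1, 5.96, 4.76 and 4.31 in nrpe1, and 4.60, 4.02 and 4.10 in WT. The lowest pkl library was thus above the highest of the other 9, nrpe1 replicate 1, and both RdDM mutants overlapped with WT. That separation depended on scaling. Median-ratio factors were 1.07 for pkl replicate 3, 0.964 for nrpe1 replicate 1 and 0.954 for nrpd1 replicate 1. Divided by them, pkl replicate 3 fell below both of the others. The RPKM levels rest on 894 reads in pkl and 489 in WT, summed over 3 libraries. The mean was 7.33 ± 1.14 RPKM in pkl and 4.24 ± 0.313 in WT (SD, n = 3 each), a ratio of 1.73. The log2 difference from WT was 0.77 in pkl, 0.04 in nrpd1 and 0.22 in nrpe1 (SE 0.19 each). The nrpd1 value had no stable direction, as it was -0.0018 after median-ratio scaling of the libraries. Against the average of the RdDM mutants the pkl value was 0.63.

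VIM2 was about 2-fold higher in pkl than in WT and not higher in the RdDM mutants. Its pkl libraries had 1.72, 1.68 and 1.83 RPKM, within a narrow band. The other libraries had 0.737, 0.831 and 0.492 RPKM in nrpd1, 0.971, 0.203 and 0.774 in nrpe1, and 1.00, 0.768 and 0.703 in WT. The value of 0.203 came from nrpe1 replicate 2 and stands for 3 reads. No library of the other genotypes reached the pkl level, and nrpd1 and nrpe1 overlapped with WT. VIM2 averaged 1.74 ± 0.0791 RPKM in pkl and 0.825 ± 0.157 in WT (SD, n = 3 each), a ratio of 2.12 on 198 and 89 summed reads. The log2 differences from WT were 1.01 in pkl, -0.25 in nrpd1 and -0.48 in nrpe1 (SE 0.41 each). Without nrpe1 replicate 2 the nrpe1 value was 0.08, so that library set its sign. Against the average of the RdDM mutants the pkl value was 1.37 (SE 0.35).

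VIM4, the near-identical neighbour of VIM2, was barely detected outside pkl. It had 9, 18 and 9 reads in pkl, 5, 4 and 3 in nrpd1, 3, 0 and 2 in nrpe1, and 2, 2 and 3 in WT. In RPKM these were 0.265, 0.448 and 0.302 in pkl, 0.144, 0.101 and 0.0771 in nrpd1, 0.0968, 0 and 0.0586 in nrpe1, and 0.0594, 0.0702 and 0.0827 in WT. The pkl libraries were above the other 9. All nrpe1 and WT libraries were at or under 3 reads, the floor used here, and no fold is given between them. Summed over libraries, 36 reads in pkl against 7 in WT gave a ratio of the levels per library total of 4.87, with an exact 95% counting interval of 2.14 to 13.0. For nrpd1, 12 reads gave a ratio to WT of 1.49 (0.542 to 4.48). PCR copies of 1 molecule cannot be recognised, so these intervals cover counting error only. They leave out the spread between libraries, and the genes were chosen by their values in pkl, so the intervals are no test of a difference. The fitted log2 difference of pkl from WT was 1.34 (SE 0.33), and it depended on the constant added before the logarithm, being 2.08 with 0.01 and 0.32 with 1. With the reads of VIM2 and VIM4 added up as if they were 1 gene, which no exchange of reads between the copies can alter, the log2 difference was 1.06 in pkl, -0.16 in nrpd1 and -0.43 in nrpe1 (SE 0.39 each).

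**Figure D2:**
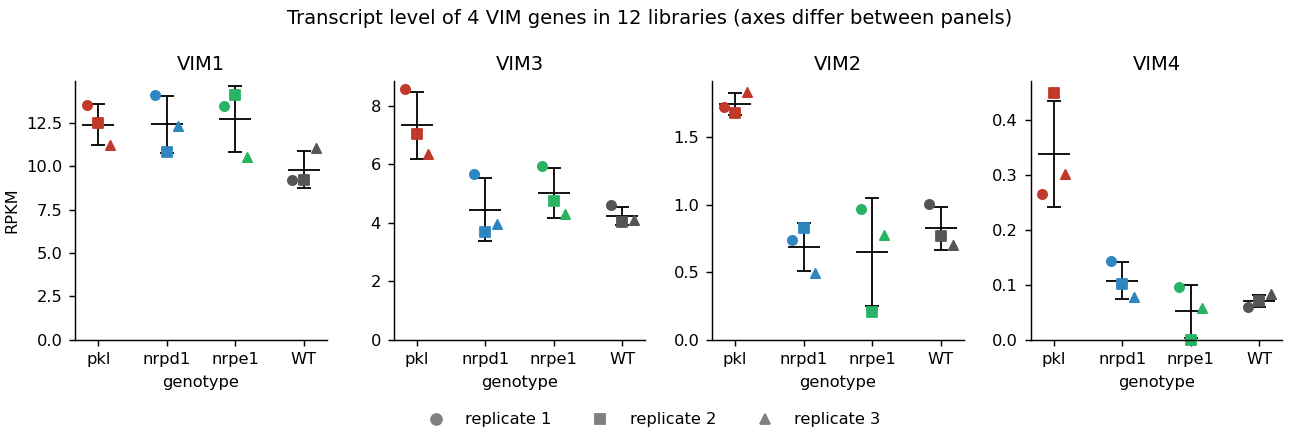
RPKM of VIM1, VIM3, VIM2 and VIM4 (panels, each y axis from 0) in the genotypes pkl, nrpd1, nrpe1 and WT (x axis). Symbols are libraries by replicate number, and the bar with whiskers is the mean ± SD of 3 libraries. For VIM3, VIM2 and VIM4 all pkl libraries lie above the other 9 libraries, which for VIM3 does not hold after median-ratio scaling. VIM1 in pkl overlaps with nrpd1 and nrpe1.

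Across all features the background of such patterns was as follows. All 3 pkl libraries lay above all 3 WT libraries for 4 of the 5 members, and for 14.3% of the 23669 features tested. They lay above all 9 other libraries for 3 members (VIM2, VIM3 and VIM4), and for 5.61% of all features. Both counts use RPKM as deposited. After median-ratio scaling of the libraries, VIM1 in pkl overlaps with WT, and VIM3 in pkl with nrpd1 and nrpe1. The shares over all features were not recomputed on that scale. VIM4 reached the filter on low values, 0.1 RPKM in at least 3 libraries, only through its pkl libraries, as only nrpd1 replicates 1 and 2 did so among the others. With a threshold of an adjusted p under 0.05 and a 2-fold change (limma), 0 of the 5 members (4 tested) were called in pkl against WT, where 1.9% of all features were. The same count was 0 in nrpd1, where 0.972% of features were called, and 0 in nrpe1, where 0.435% were. In pkl against the average of the RdDM mutants, 1 member (VIM4) was called higher, beside 3.16% of all features. With the replicate number as a block, VIM4 was called in pkl against WT (3.5% of all features), and VIM2 and VIM4 against the average of the RdDM mutants (4.8%). As the members were selected on these contrasts, and VIM4 entered through pkl, these counts are a description and support nothing.

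**Figure D3:**
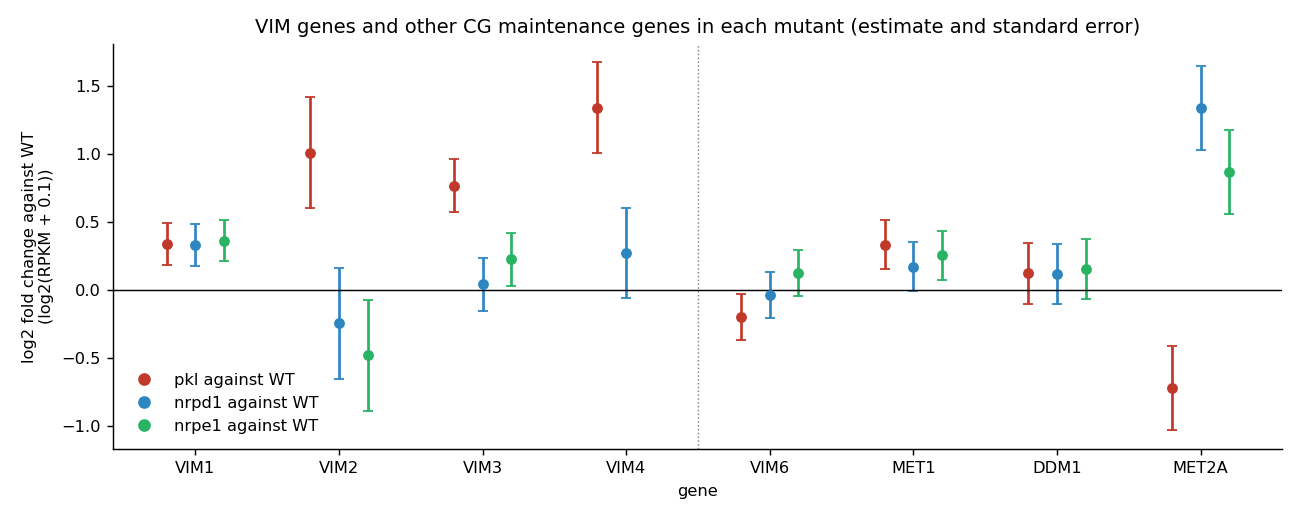
Log2 fold change against WT on the log2(RPKM + 0.1) scale (y axis, points with SE whiskers, n = 3 libraries per genotype) for pkl, nrpd1 and nrpe1 in VIM genes, left of the dotted line, and in VIM6, MET1, DDM1 and MET2A, right of it. VIM2, VIM3 and VIM4 have their highest value in pkl, VIM1 has similar values in all mutants, and MET2A is lowest in pkl. VIM4 in nrpe1 is left out because all its nrpe1 and WT libraries had at most 3 reads.

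The makeup of the family differed in pkl accordingly. Sums, shares and ratios that include VIM2 or VIM4 depend on how reads fitting both genes were treated, which is not given. The summed RPKM of the family was 24.1, 21.7 and 19.7 in pkl, 20.6, 15.4 and 16.9 in nrpd1, 20.5, 19.1 and 15.7 in nrpe1, and 14.8, 14.1 and 15.9 in WT. All pkl sums were above all WT sums but overlapped with those of both RdDM mutants. VIM1 made up 56.1% to 57.6% of the sum in pkl, 68.2% to 73.0% in nrpd1, 65.7% to 74.0% in nrpe1 and 61.9% to 69.3% in WT. VIM3 relative to VIM1 is a ratio within a library, so library totals cancel from it. It was 0.636, 0.565 and 0.568 in pkl, 0.403, 0.341 and 0.323 in nrpd1, 0.443, 0.337 and 0.409 in nrpe1, and 0.501, 0.437 and 0.372 in WT. The ratio of VIM2 to VIM1 was 0.127, 0.135 and 0.164 in pkl and at most 0.109 in the other 9 libraries, in WT replicate 1. Both ratios were thus higher in pkl than in every other library.

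**Figure D4:**
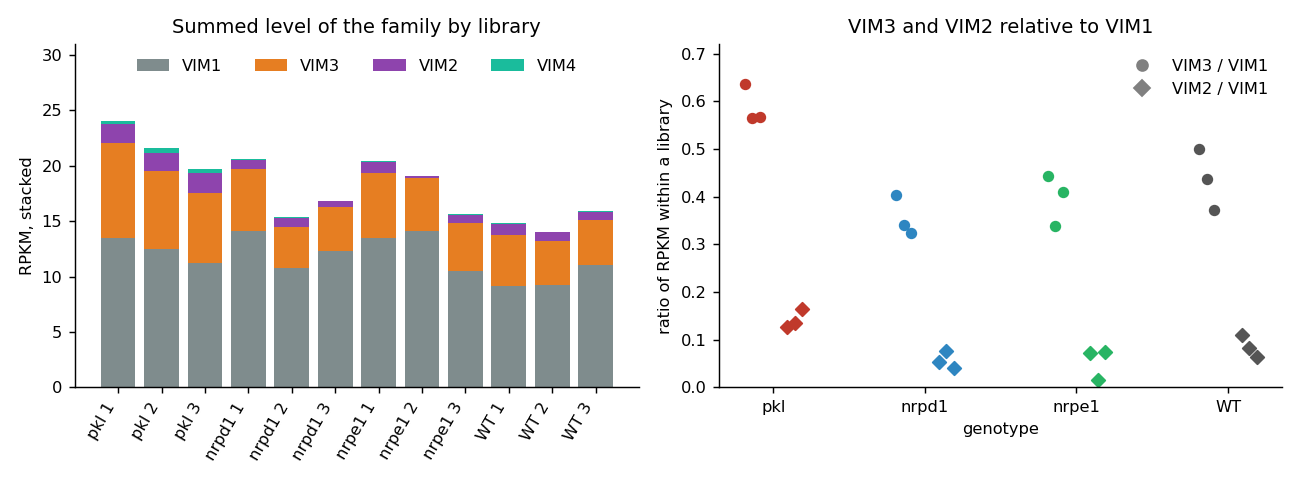
Left, RPKM of VIM1, VIM3, VIM2 and VIM4 stacked for each of the 12 libraries. Right, RPKM of VIM3 (circles) and VIM2 (diamonds) divided by that of VIM1 in the same library, by genotype, 1 symbol per library; both ratios in pkl lie above all other libraries, at 0.565 or more for VIM3 and 0.127 or more for VIM2.

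The replicate number gave a contrast that did not enter the choice of the genes. Libraries with the same number deviated together in all genotypes, and replicate 1 was compared with replicates 2 and 3 in a model that held genotype constant, a comparison added after seeing the data. VIM3 was higher in replicate 1, by 0.37 on the log2 scale (SE 0.09, adjusted p = 0.0078, limma), and its replicate 1 value was the highest of its genotype in 4 of 4 genotypes. For the other members the differences were 0.12 for VIM1 (adjusted p = 0.40), 0.40 for VIM2 (adjusted p = 0.307) and 0.13 for VIM4 (adjusted p = 0.76), none past the threshold (limma). The split touched many genes, as 38.6% of all features passed the same threshold at any fold, and the labels do not say what sets the replicates apart. Within each replicate number, VIM3, VIM2 and VIM4 were higher in pkl than in the other genotypes. That follows from their pkl libraries lying above all others in RPKM as deposited and adds nothing to it.

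Over the 12 libraries, which share their depth and replicate numbers, the members were compared in pairs by the Pearson correlation of log2(RPKM + 0.1). Between VIM1 and VIM3 it was 0.54, and 0.68 with the genotype means removed. Without nrpe1 replicate 2, the shallowest library, these values were 0.62 and 0.79. Between VIM2 and VIM4 it was 0.87, and 0.74 with the means removed. The value of 0.74 rested on nrpe1 replicate 2, without which the pair had 0.83 and 0.22. Between VIM1 and VIM2 it was -0.16, and 0.18 without that library, so no direction is given for this pair. The values without the library were added after seeing the data. Shared reads of VIM2 and VIM4 were present in this design whatever their levels, and their part in the correlation was not tested.

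The partners of VIM proteins in CG maintenance did not share the pattern of VIM2, VIM3 and VIM4. Of 6 other genes of this process, 4 passed the filter on low values, and 2 of them had a positive log2 difference in pkl. By limma 0 were called in pkl against WT, where 1.9% of all features were. By voom on recovered reads 0 were called as well, beside 473 of 23669 features. By limma 1 of the 4 was lower in pkl at an unadjusted p under 0.05, where 15.5% of all features passed in either direction. MET1, the methyltransferase that copies CG methylation, had 10.5, 9.16 and 9.77 RPKM in pkl and 8.09, 6.59 and 8.76 in WT, which differed by 0.33 on the log2 scale (SE 0.18, adjusted p = 0.431, limma). DDM1, a remodeler that opens heterochromatin to methyltransferases, averaged 5.25 ± 0.783 RPKM in pkl and 4.79 ± 0.356 in WT (SD, n = 3 each), with a log2 difference of 0.12 (adjusted p = 0.89, limma). VIM6 had 1.85, 2.11 and 2.22 RPKM in pkl, 2.81, 1.97 and 2.26 in nrpd1, 2.62, 2.38 and 2.85 in nrpe1, and 2.55, 2.21 and 2.40 in WT. Its log2 difference from WT was -0.20 in pkl (SE 0.17, adjusted p = 0.67, limma), opposite in sign to that of VIM1 to VIM4. MET2A, a weakly expressed relative of MET1, was the one gene of this group with a called difference. It had 10, 6 and 0 reads in pkl, 43, 49 and 59 in nrpd1, 32, 10 and 31 in nrpe1, and 14, 10 and 13 in WT. MET2A was lower in pkl than in the average of the RdDM mutants (log2 difference -1.83, adjusted p = 0.0028, limma), while its pkl difference from WT of -0.72 (SE 0.31) did not pass (adjusted p = 0.288). MET2B had at most 12 reads and MET3 at most 1 read in a library, and both were below the filter.

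VIM genes are known to be expressed in dividing cells, and genes of DNA replication, of mitosis and of the E2F pathway, which switches on genes for S phase, were therefore set beside them. In pkl against WT, 23 of 24 replication genes had a positive log2 difference, with a median of 0.38, against 60.3% of all features with a median of 0.07. Libraries scaled by median ratio gave 0.31 and again 23 of 24, with a median over all features of -0.0029. Of the 24, 0 were called by limma, where 1.9% of all features were. By voom on the recovered reads 0 were called, beside 473 of 23669 features. At an unadjusted p under 0.05, 7 were higher by limma, where 15.5% of all features passed in either direction. At any fold, none passed an adjusted p of 0.05, where 3.17% of all features did, and 7 passed with the replicate block, where 12.5% did. These 7 were PCNA1, PCNA2, ORC1B, FAS1, TSO2, RNR1 and HTR1. ORC1B, a subunit of the origin recognition complex, averaged 3.69 ± 0.616 RPKM in pkl and 2.22 ± 0.558 in WT (SD, n = 3 each), a log2 difference of 0.73 (SE 0.23, adjusted p = 0.144, and 0.015 with the block, limma). FAS1, a subunit of the histone chaperone CAF-1, had a log2 difference of 0.66 (SE 0.20, adjusted p = 0.113, and 0.048 with the block, limma). All 3 pkl libraries lay above all 3 WT libraries for 13 of the 24 (14.3% of all features), and above the other 9 for 3 of them, FAS1, FAS2 and RNR1 (5.61% of all features). CDC6, an origin licensing factor, was the exception in sign, at -0.28. In nrpd1 and nrpe1 the medians of the replication genes were 0.19 and 0.17. VIM2 had 1.01 in pkl, and VIM3 with 0.77 (SE 0.19) lay within its SE of the highest replication gene, ORC1B. VIM1 with 0.34 lay below the median of that list. As the VIM genes were chosen by their values in pkl, their place beside this list is a description and supports nothing.

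Mitotic genes gave lower values. Their median in pkl against WT was 0.10 over 11 genes, 8 of which were positive and 0 called by limma or voom. Over all features, 1.9% were called by limma and 473 of 23669 by voom. By limma 1 of the 11 was higher at an unadjusted p under 0.05, where 15.5% of all features passed in either direction. CDC20.1, an activator of the anaphase-promoting complex, had the highest difference with 0.37 (SE 0.16, adjusted p = 0.284, limma), followed in size by the kinase gene CDKB1;1 with 0.15 (adjusted p = 0.855). Summed over the list, mitotic genes had 108 to 139 RPKM in pkl, 131 to 138 in nrpd1, 113 to 145 in nrpe1 and 109 to 124 in WT. The summed replication genes had 360 to 596 RPKM in pkl, 351 to 468 in nrpd1, 335 to 492 in nrpe1 and 332 to 431 in WT, ranges that overlap. The part of a different share of dividing cells in the VIM levels was not tested. The 5 genes of the E2F group had a median of 0.12 in pkl against WT and a lowest value of 0.06, near the 0.07 of all features. After median-ratio scaling their median was 0.04, with 3 of 5 positive. By limma 0 of them were called, where 1.9% of all features were. E2FC, which codes for a repressor-type E2F factor, was higher in pkl at an adjusted p of 0.037 (limma), which 3.17% of all features passed at any fold. Its difference was less than 2-fold (log2 difference 0.67, SE 0.15). It had 8.41, 8.93 and 7.90 RPKM in pkl, 6.50, 6.86 and 5.73 in nrpd1, 6.65, 4.73 and 5.56 in nrpe1, and 4.97, 5.79 and 5.001 in WT, so that its pkl libraries lay above the other 9. E2FA, an activator, differed by 0.36 (SE 0.19, adjusted p = 0.403, limma). The lists were chosen with earlier results of these data known.

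**Figure D5:**
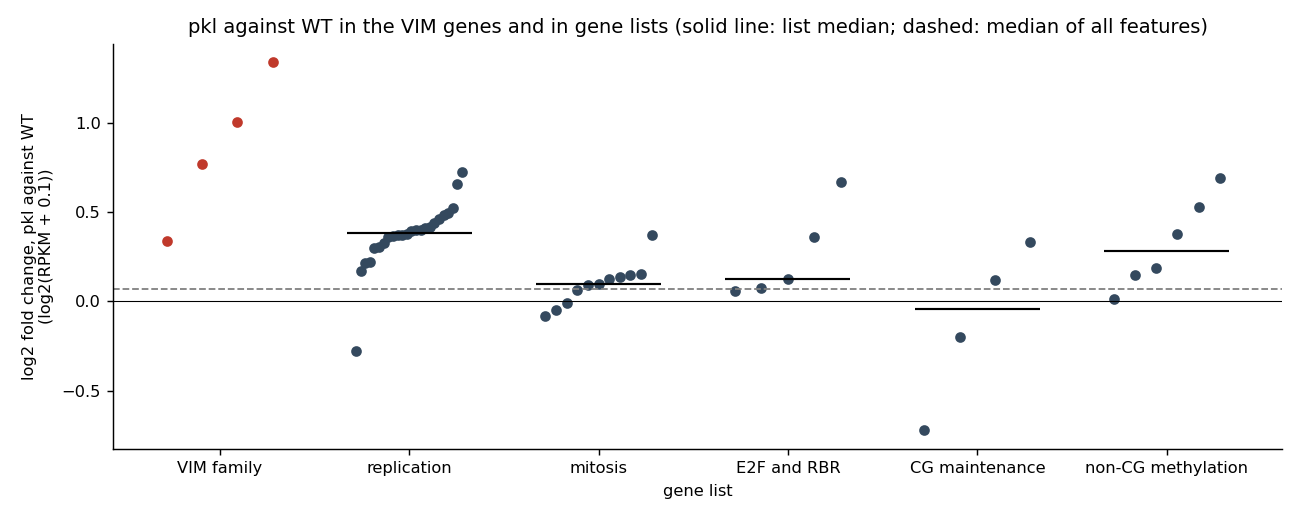
Log2 fold change of pkl against WT on the log2(RPKM + 0.1) scale (y axis), 1 point per tested gene, for VIM1 to VIM4 and gene lists (x axis, genes sorted by value within a list). The solid line is the median of a list and the dashed line that of all features (0.07). The replication genes center on 0.38 and the mitotic genes on 0.10. VIM2, VIM3 and VIM4, of a family chosen by its values in pkl, lie above the highest replication gene, VIM3 by less than its SE.

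Other genes of DNA methylation were examined in the same fit. Among 7 genes of non-CG methylation, 6 were tested and 0 were called in pkl by limma or voom, with a median log2 difference of 0.28. Over all features, 1.9% were called by limma and 473 of 23669 by voom. At an unadjusted p under 0.05, 2 of the 6 were higher by limma, where 15.5% of all features passed in either direction. The largest differences were those of SUVH5, a histone methyltransferase gene (0.69, SE 0.27, adjusted p = 0.23, limma), and CMT3, the CHG methyltransferase gene (0.53, SE 0.13, adjusted p = 0.062, and 0.022 with the block, limma). Of 4 demethylase genes, ROS1 was called lower in pkl, nrpd1 and nrpe1, with a log2 difference in pkl of -2.62 (SE 0.21), whereas DML2 differed by 0.44 in pkl (adjusted p = 0.464, limma). SDC, a gene that is silenced by non-CG methylation, was called higher in all mutants, with log2 differences of 2.44 in pkl, 3.06 in nrpd1 and 3.32 in nrpe1. Both genes thus moved in the RdDM mutants as well as in pkl. Against WT, 1.9% of all features were called in pkl, 0.972% in nrpd1 and 0.435% in nrpe1. FWA and QQS, further genes under methylation control, were below the filter on low values. Of the seedling tissue genes, PYK10 (-0.34, SE 0.18, adjusted p = 0.395, limma) and COBL9 (0.34, SE 0.24, adjusted p = 0.589) had the largest differences in pkl, and COBL9, a root hair gene, was called lower in nrpd1.

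The genes with the most similar profiles over the 12 libraries differed between members. Of 22703 genes ranked by Pearson correlation, VIM1 was closest to the gyrase gene GYRA (AT3G10690, r = 0.94), HIK (AT1G18370), a kinesin of cytokinesis, and AT3G44050. VIM3 was closest to RAD54 (AT3G19210, r = 0.96), a DNA repair gene, PAL3 (AT5G04230) and AT5G66600. PAL3 averaged 23.96 RPKM in pkl, 12.3 in nrpd1, 14.2 in nrpe1 and 10.7 in WT. For VIM2 the genes were AT3G57810 (r = 0.98), AT5G49525 and AT1G73470, and for VIM4 AT2G17033 (r = 0.96), the carotenoid hydroxylase gene CYP97A3 (AT1G31800) and AT4G01935. These values describe the libraries, which share genotype and replicate number, and carry no test.

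Most chromosomal neighbours had too few reads to be compared with the members. Next to VIM2 and VIM4, AT1G66045 had 0 reads in all libraries, although it lies 548 bases from VIM2 and 1508 bases from VIM4. On the far side of VIM2, AT1G66060 had 24, 32 and 22 reads in pkl and 11, 26 and 21 in WT, a log2 difference of 0.36 (SE 0.48, adjusted p = 0.827, limma). Past the end of VIM4, AT1G66030, a cytochrome P450 gene 11 bases away, had at most 5 reads in a library. The neighbours of VIM1 (AT1G57810 and AT1G57830) and of VIM3 (AT5G39540 and AT5G39560) had at most 1 read. Beyond VIM5, AT1G57790 had 149, 327 and 235 reads in pkl and 124, 133 and 200 in WT, with a log2 difference of 0.52 (SE 0.26, adjusted p = 0.38, limma). Of the neighbours that passed the filter (AT1G66060, AT1G66030 and AT1G57790), none was called in pkl against WT, where 1.9% of all features were. Each had a positive log2 difference there, that of AT1G66030 being 0.51 (SE 0.37). Against the average of the RdDM mutants, AT1G57790 differed by 0.53 in pkl (adjusted p = 0.24, and 0.025 with the block, limma).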

How the data were processed

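Poly(A) mRNA of 12 seedling libraries (4 genotypes, 3 libraries each) had been sequenced as stranded paired-end reads. Genotypes and replicate numbers were taken from the sample titles, and the study's design names the libraries biological replicates without saying what a replicate number shares. Per the labels and the study's methods, the authors trimmed the reads with Trim Galore 0.4.0, aligned them to TAIR10 with Subread 1.5.1, assigned them to genes and transposable elements with featureCounts, and used edgeR for testing. CASAVA 1.8 is also named. Strand setting and the treatment of reads with several positions are not given in the sources used here. The authors deposited RPKM, the only unit used, for 64791 features, and 0 per-sample columns were left out.

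In each library the RPKM values step by the value of a single read, from which library totals, gene lengths and reads were recovered. Reads were whole, within 0.0001, for 100% of the 28130 features above 0. Tested on simulated data for this recovery, all 12 totals and the reads of 99.69% of 2897 features were returned. A p-value here measures the spread between these libraries.

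Features with at least 0.1 RPKM in 3 or more libraries entered the test (23669), which used limma 3.58.1 (R 4.3.3) with log2(RPKM + 0.1), an intensity trend and 1 model over 12 libraries without covariate. This scale understates changes of low genes. Benjamini-Hochberg adjustment ran over all features, two-sided, and calls needed an adjusted p under 0.05 and a 2-fold change. edgeR was not used, as the deposited values are RPKM, and the recovered reads were tested with voom as an alternative. Tested on simulated data for pkl against WT, 100 of 100 features raised 4-fold and 97 of 100 lowered 4-fold were called, with 8 of 23176 unchanged ones. The changed features had a mean above 1 RPKM, and the simulation used a dispersion of 0.03 with no effect of replicate number. Its call rates do not carry over to smaller changes or to weaker genes such as VIM4.

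Deviations from the genotype means correlated at 0.149 to 0.600 in all 18 same-numbered pairs, against -0.479 to 0.229 in 36 others. These ranges overlap, and mainly replicate 1 stood apart. Replicates 2 and 3 of different genotypes correlated positively, and nrpe1 replicate 2 was closer to WT replicate 3 (0.201) than to WT replicate 2 (0.149). A model with the number as a block was an alternative. The others were pseudocounts of 0.01 and 1, no filter or 1 RPKM, median-ratio scaling, a fit of the compared groups alone, voom on recovered reads, leaving out single libraries, and the sum of VIM2 and VIM4. Named genes were the members, all CG maintenance genes, in other lists those called in pkl against WT and the 2 with the largest difference, the nearest annotated gene on either side, and the 3 genes most correlated with each member. Genes outside it are those past the threshold with the block, CDC6, FAS2, FWA, QQS and the tissue genes, named for their values or as list members. Members and lists were chosen with earlier results of these data known. Sequences and coordinates are from the RefSeq genome TAIR10.1, matched by gene ID for all 5 members, and were aligned with Biopython 1.88. The expression table holds no coordinates.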

Additional observations from a re-analysis of the deposited data

How the results depend on the processing

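Of 301 values under alternative settings, 280 stayed within 1.5 times the count or within the spread between replicates, and 21 moved beyond that. Changes of sign were not counted apart and occurred among both. VIM3 in nrpd1 against WT was 0.04, and -0.14 without nrpd1 replicate 1, which is within the spread. The tally is no measure of robustness, as part of it could not move. For a member's log2 difference, the block, the filters and the fit of the compared groups alone return the same estimate by construction. Many other values were list counts of 0 that stayed at 0. Features called in pkl against WT numbered 449, and 248 with a pseudocount of 1, 829 with the replicate block and 222 to 349 without single libraries. In nrpd1 against WT 230 were called, and 141 with a pseudocount of 1, 108 with a fit of those 6 libraries alone and 143 to 196 without single libraries. In pkl against the average of the RdDM mutants 749 were called, and 338 with a pseudocount of 1, 498 with a filter of 1 RPKM, 1137 with the replicate block and 412 to 740 without single libraries. Replication genes past the adjusted p at any fold numbered 7 with the block against 0. VIM2 in nrpe1 against WT was -0.48, and -0.83 to 0.079 without single libraries, the last without nrpe1 replicate 2. VIM4 in pkl against WT was 1.34, and 2.08 with a pseudocount of 0.01, 0.32 with 1, 2.03 with voom and 1.17 to 1.46 without single libraries. VIM4 in nrpd1 was 0.27, and -0.16 with VIM2 added. A filter of 1 RPKM removed VIM4. At 2-fold, the block also called AT5G49525, a gene close to VIM2 in profile, in pkl against the average of the RdDM mutants (1.04, adjusted p = 0.0249, against 0.0749 without it, limma), and changed no other call of a named gene than those given beside their results. In pkl against WT, VIM2 stayed between 0.91 and 1.14 and VIM3 between 0.65 and 0.86 without single libraries. The depth limits VIM4 and VIM5, with at most 18 and 0 reads in a library. Causes of the moves were not tested, except that a pseudocount acts most on low values.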
